A study of Mus musculus with 18 samples.

Results

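The comparison described here sets liver RNA of mice that ate a high-fat diet containing PFNA against liver RNA of mice that ate the same high-fat diet with no compound. PFNA (perfluorononanoic acid) is a perfluorinated fatty acid analogue with a carboxylic acid head group. The members are the 6 arrays labelled with these groups, 3 per group, out of 18 arrays in the series, and they were chosen by their titles and not by any measured value. All animals were male C57BL6 mice of no stated genetic alteration that started their diet at 6 weeks of age and stayed on it for 12 weeks, until 18 weeks of age. The high-fat diet (HFD) supplied 45% of its energy as fat. Further groups used below are PFNA on the low-fat diet (LFD, 10% of energy as fat), PFOS (perfluorooctane sulfonic acid) on the high-fat diet, and the low-fat control. The title of the series names fatty liver disease and these compounds, so the question is which liver genes PFNA changed in mice on a fat-rich diet. The labels call the arrays of a group biological replicates and state no dose.

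Perfluorinated acids resemble fatty acids and are hardly metabolised. In rodent liver they are known to act on nuclear receptors, chiefly PPARA, which drives genes of fatty acid oxidation, and CAR and PXR (genes Nr1i3 and Nr1i2), which drive cytochrome P450 and transferase genes that clear foreign compounds. CAR does not need to bind a ligand directly to be activated, and Cyp2b10 is its best known target gene in the mouse.

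Every array carried strong hepatocyte signal: the mean log2 signal over 11 markers such as albumin lay between 12.08 and 12.34 on the 6 arrays. Of the 6 arrays compared, 1 stood apart from its group. On the first principal component of all 18 arrays, which held 17.9% of the variance, HFD PFNA replicate 3 scored 32.4, against -10.4 and -8.1 for replicates 1 and 2 and -8.2, -15.9 and -12.1 for the 3 HFD controls. The 3 HFD PFOS arrays scored 27.8, 34.9 and 38.6, and LFD PFOS replicate 3 scored 32.9, against -10.9 for each of the other two of its group. HFD PFNA replicate 3 correlated with them at 0.9886, 0.9885 and 0.9875, and with HFD PFNA replicates 1 and 2 at 0.9839 and 0.9846. The label of HFD PFNA replicate 3 was kept as given, and whether the array holds another or a mixed sample was not tested, which touches every mean of that group. Gene differences from the HFD controls that change by over 1.5 times without it are given both ways.

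PFNA raised a small set of liver genes on the high-fat diet, with the largest rises in Cyp2b10, Cyp2c55, Krt23, Slc35f2 and Cyp4a12b, and lowered a smaller set. Of 34472 probes tested with limma across all 18 arrays, 39 passed an adjusted p of 0.05, which is 0.113% of all probes. Of these, 30 were higher with PFNA (0.087% of all probes) and 9 were lower (0.0261%). A total of 22 called probes differed by at least 1 on the log2 scale. The called probes that name 1 gene gave 28 named genes, 24 higher and 4 lower, and 1 unnamed gene model. Another 7 called probes named no gene and 2 named several, and these are not assigned to genes below. The largest called fall, -2.14 (adjusted p = 0.0262), was in a probe with no gene. Without HFD PFNA replicate 3 the count was 31 probes (0.0899% of all probes), 24 of them among the 39. The count fell to 9 without HFD PFNA replicate 1, 15 without HFD PFNA replicate 2, 21 without HFD control replicate 2 and 24 without HFD control replicate 3, and a fit to the 6 arrays alone called 6 probes. The 8 genes called whichever array was left out were Cyp2b10, Krt23, Slc35f2, Cyp4a12b, Alpl, Sulf2, Cyp4a12a and Pla2g6. The calls of the other 20 genes ended without at least 1 array, with adjusted p reaching 0.169. Of the probes that name several genes, 1 was also called whichever array was left out (difference 1.05, adjusted p up to 0.0409 in limma).

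**Figure D1:**
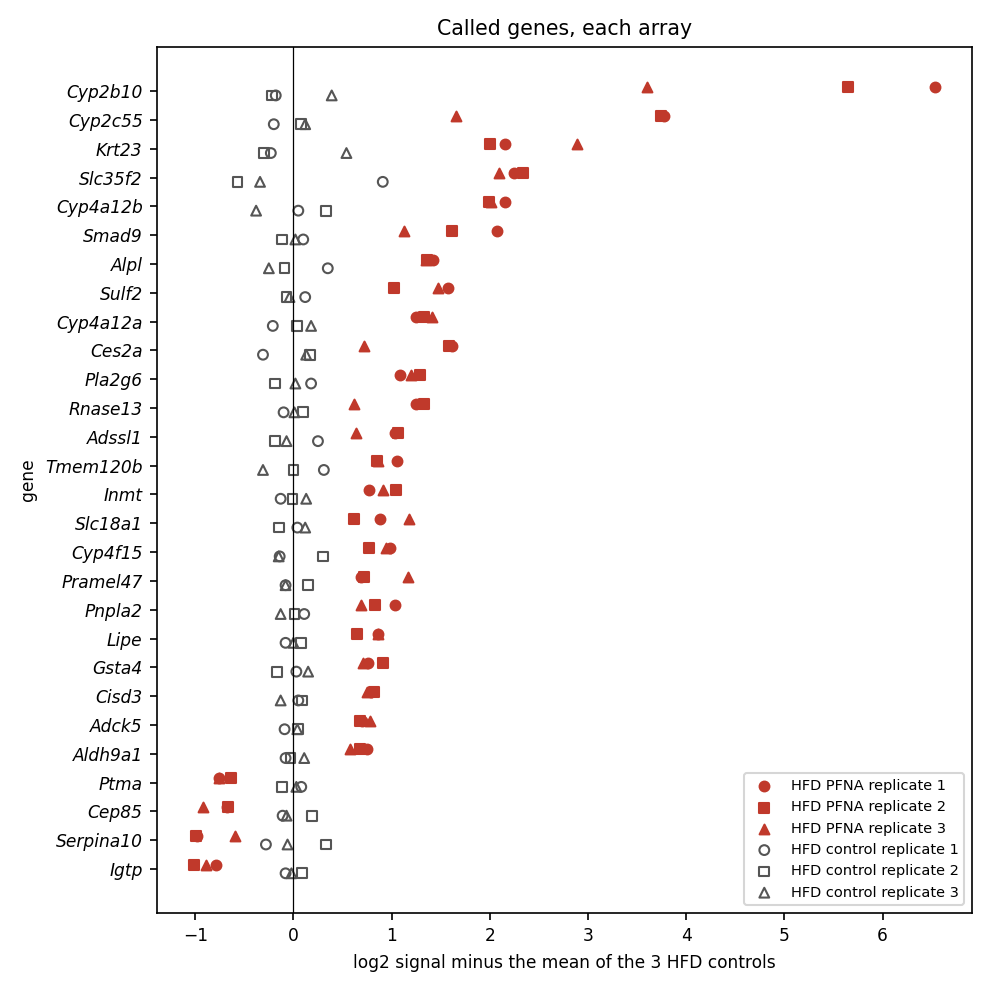
Each row is 1 of the 28 genes that passed the limma test, and the horizontal axis is log2 signal minus the mean of the 3 HFD controls. Filled symbols are the 3 HFD PFNA arrays and open symbols the 3 HFD controls; Cyp2b10, Cyp2c55 and Ces2a were lowest in HFD PFNA replicate 3, and the groups overlap in none of the 28 genes.

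Foreign-compound metabolism gave the largest rise. Cyp2b10 had log2 signals of 10.63, 9.75 and 7.70 in HFD PFNA livers, against 3.92, 3.88 and 4.49 in HFD control livers. The controls lay about at or below the median signal of their arrays (4.43 to 4.59 over the series), so the control level may be background and the difference a lower estimate. The difference was 5.26 (SE 0.67, n = 3 each, adjusted p = 0.00193 in limma), a 38.4-fold difference on this scale, and 6.09 without HFD PFNA replicate 3 (SE 0.62, adjusted p = 4.63e-04). Cyp2c55, a P450 of the Cyp2c family, had signals of 8.55, 8.52 and 6.44 in HFD PFNA livers, against 4.58, 4.86 and 4.90 in HFD control livers. It differed by 3.06 (SE 0.47, adjusted p = 0.0103), and its call ended without HFD PFNA replicate 1 or 2 (adjusted p up to 0.086). Ces2a, a carboxylesterase of the endoplasmic reticulum, had signals of 10.96, 10.92 and 10.06 in HFD PFNA livers, against 9.03, 9.51 and 9.47 in HFD control livers. In all 3 genes the groups did not overlap, and HFD PFNA replicate 3 was the lowest of the PFNA arrays. Ces2a differed by 1.31 (SE 0.22, adjusted p = 0.023), and by 1.60 without that array (adjusted p = 0.00197); leaving out any other of the 6 arrays ended its call, with adjusted p up to 0.127.

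These 3 genes were the members of the CAR and PXR target list that passed the test, of 34 measured. All rose, against 0.087% of all probes called higher. The groups did not overlap for 14 members that were higher and 2 that were lower, 41.2% and 5.88% of the list, against 6.83% and 6.89% of all probes. Without HFD PFNA replicate 3 the CAR and PXR members above all controls numbered 19, against 13.4% of all probes. The median difference of the list was 0.37 (0.44 without that array), and of all probes -0.01. Cyp3a11, the main PXR-driven P450 of mouse liver, had signals of 11.16, 11.25 and 10.83 in HFD PFNA livers, against 10.40, 9.56 and 9.66 in HFD control livers. Its difference of 1.21 (SE 0.24) stood just outside the threshold, at an adjusted p of 0.055. Cyp2c29 differed by 0.92 (adjusted p = 0.055; 0.0463 without HFD PFNA replicate 3). The glutathione transferases Gstm3 and Gstt3 differed by 1.84 (SE 0.65, adjusted p = 0.336) and 1.47 (SE 0.38, adjusted p = 0.164), with PFNA arrays above all controls in both. Cyp2c38 and Cyp2c39 were the 2 members with all PFNA arrays below all controls, differing by -0.98 (adjusted p = 0.213) and -0.93 (adjusted p = 0.298). Genes of the Cyp2c, Cyp3a and Gstm families are near-identical in sequence, so part of a signal may come from a relative. The receptors themselves did not pass the test: Nr1i3 differed by -0.06 (SE 0.19, adjusted p = 0.954; 0.10 without HFD PFNA replicate 3), Nr1i2 by 0.47 (SE 0.17, adjusted p = 0.333) and Ppara by -0.06 (SE 0.12, adjusted p = 0.915; -0.03 without that array).

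**Figure D2:**
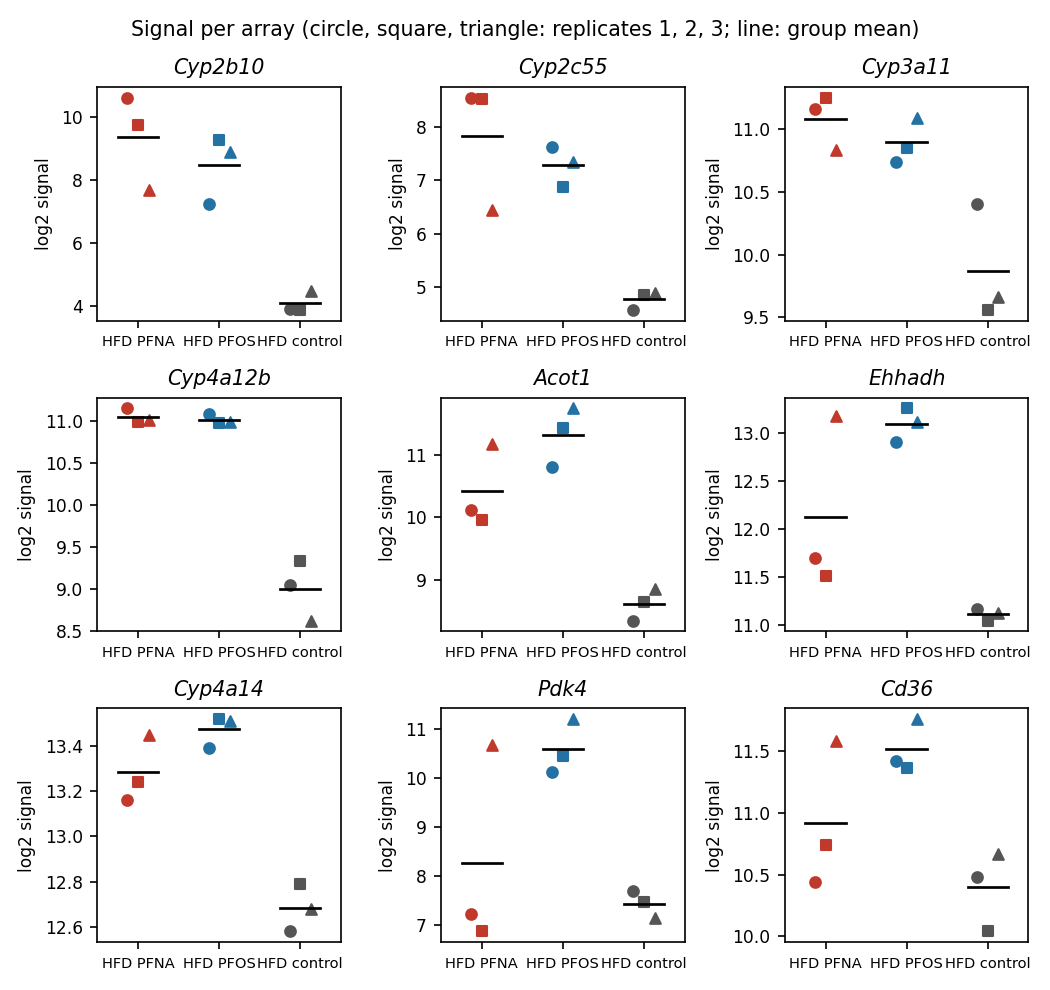
Log2 signal of 9 genes on each HFD PFNA, HFD PFOS and HFD control array, with circles, squares and triangles for replicates 1, 2 and 3 and a line at the group mean. In Cyp2b10 and Cyp2c55 HFD PFNA replicate 3 is the lowest PFNA array, while in Pdk4, Ehhadh, Acot1 and Cd36 it is the highest.

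Cyp4a12a and Cyp4a12b rose with little scatter between arrays. They encode male-predominant enzymes that hydroxylate the end carbon of fatty acids. Cyp4a12b had signals of 11.15, 10.99 and 11.01 in HFD PFNA livers, against 9.05, 9.33 and 8.62 in HFD control livers, and Cyp4a12a had 9.87, 9.95 and 10.03 in HFD PFNA livers, against 8.41, 8.66 and 8.80 in HFD control livers. The PFNA arrays of both genes lay in a narrow band above every control, HFD PFNA replicate 3 included. The differences were 2.05 for Cyp4a12b (SE 0.19, adjusted p = 1.17e-04) and 1.33 for Cyp4a12a (SE 0.14, adjusted p = 3.35e-04). These were the only named genes still called when the fit held the 6 arrays alone. The 2 genes are close copies, so their signals may not be independent. The other 16 measured members of the male-predominant list did not pass the test. Cyp4f15, another fatty acid hydroxylase, rose by 0.89 (SE 0.16, adjusted p = 0.0362), with 9.90, 9.69 and 9.86 in HFD PFNA livers, against 8.78, 9.22 and 8.77 in HFD control livers. It was the only one of 27 further PPARA targets to pass, against 0.087% of all probes called higher. Its call ended without HFD control replicate 1 or 3 or any 1 of the PFNA arrays (adjusted p up to 0.135).

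Lipases of stored fat rose too. Pnpla2, the lipase that starts the breakdown of stored triglyceride, had signals of 9.87, 9.67 and 9.53 in HFD PFNA livers, against 8.95, 8.85 and 8.71 in HFD control livers. Lipe, the hormone-sensitive lipase that cleaves diglyceride, had 6.80, 6.59 and 6.80 in HFD PFNA livers, against 5.86, 6.02 and 5.94 in HFD control livers. All PFNA arrays were above all controls in both genes. Pnpla2 differed by 0.85 (SE 0.13, adjusted p = 0.014) and Lipe by 0.79 (SE 0.11, adjusted p = 0.00777). The call of Lipe ended without HFD PFNA replicate 1 (adjusted p = 0.0584), and that of Pnpla2 without HFD control replicate 2 or 3 or HFD PFNA replicate 1 or 2 (adjusted p up to 0.0978). They were the 2 called genes among 18 measured of the lipid droplet and lipase list, against 0.087% of all probes called higher. The median of the list was 0.17, and 0.05 without HFD PFNA replicate 3. Pla2g6, a phospholipase A2 that does not need calcium, rose by 1.19 (SE 0.13, adjusted p = 5.84e-04), with 9.28, 9.48 and 9.39 in HFD PFNA livers, against 8.37, 8.0 and 8.21 in HFD control livers.

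The other rises were in genes of varied functions. Krt23, a keratin of epithelial cells, had signals of 7.75, 7.60 and 8.49 in HFD PFNA livers, against 5.37, 5.30 and 6.14 in HFD control livers, and differed by 2.34 (SE 0.29, adjusted p = 0.00171). Slc35f2, a membrane transporter of the solute carrier family, had 7.51, 7.60 and 7.35 in HFD PFNA livers, against 6.17, 4.69 and 4.92 in HFD control livers, and differed by 2.23 (SE 0.28, adjusted p = 0.00193). In both genes every PFNA array lay more than 1 log2 unit above every control. Alpl, the tissue-nonspecific alkaline phosphatase, had 9.04, 8.98 and 8.97 in HFD PFNA livers, against 7.97, 7.53 and 7.37 in HFD control livers, and differed by 1.37 (SE 0.16, adjusted p = 0.00119). Sulf2, which removes sulfate groups from heparan sulfate outside the cell, had 9.09, 8.54 and 8.99 in HFD PFNA livers, against 7.64, 7.45 and 7.48 in HFD control livers, and differed by 1.35 (SE 0.15, adjusted p = 5.32e-04). These calls did not depend on any single array. Smad9, a transducer of bone morphogenetic protein signals, rose by 1.61 (SE 0.26, adjusted p = 0.0204), with 7.40, 6.95 and 6.46 in HFD PFNA livers, against 5.43, 5.21 and 5.35 in HFD control livers; its call ended without HFD control replicate 2 or 3 or HFD PFNA replicate 1 or 2 (adjusted p up to 0.113).

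Smaller rises, between 0.67 and 1.06, were called in Gsta4, a transferase that clears lipid aldehydes, Cisd3, an iron-sulfur protein of mitochondria, and Aldh9a1, an aldehyde dehydrogenase of carnitine synthesis. Inmt, a methyltransferase of indole amines, Adssl1, an enzyme of AMP synthesis, Slc18a1, a vesicular amine transporter, Adck5, Tmem120b, Rnase13 and Pramel47 were the others. Cisd3 was read by 2 probes that were both called. Pramel47 and Rnase13 lay below the median signal of their arrays on all 6 arrays. Each of these calls ended without at least 1 array, with adjusted p up to 0.169; for Cisd3 that was HFD PFNA replicate 1 alone. Gsta4 was the only one of 21 measured NRF2 targets to pass, against 0.087% of all probes called higher. Nqo1, a quinone reductase and standard NRF2 target, differed by 0.32 (SE 0.20, adjusted p = 0.659; 0.18 without HFD PFNA replicate 3), and Cyp1a1, the standard target of the AHR receptor, by 0.26 (SE 0.16, adjusted p = 0.646).

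Promoters of the called genes were read to show 2 of the rises beside their start sites. Sequences are from RefSeq on GRCm38.p6, in the direction of the gene, and cover 250 bases before to 50 bases after the start. The letters AGGTCA, the half-site that nuclear receptors bind, were searched on both strands. They occurred in any window of 6 of the 18 called rises that had a window (33.3%), against 18.1% of 27025 genes. No window was matched for the other 6 rises. Among the called falls, 1 of the 3 with a window held the letters, Igtp, which is also 33.3%. A match of these letters is a description and not a binding site. The windows of 30 bases around the match, with the half-site in capitals, are shown for Slc35f2 (chr9:53771391-53771420, plus strand) and Ces2a (chr8:104733765-104733794, plus strand).
Slc35f2: gagtgagaccttAGGTCAaagaaactaacc
Ces2a: attccatattggAGGTCAgggatcctggca

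Of the genes of fatty acid oxidation and the further PPARA targets, Cyp4f15 alone passed, and several others differed widely between PFNA arrays. Acot1, a cytosolic acyl-CoA thioesterase, had signals of 10.12, 9.96 and 11.17 in HFD PFNA livers, against 8.35, 8.64 and 8.85 in HFD control livers. Cyp4a14, a fatty acid omega-hydroxylase, had 13.16, 13.24 and 13.45 in HFD PFNA livers, against 12.58, 12.79 and 12.68 in HFD control livers. All PFNA arrays were above all controls in both genes, but neither passed: Acot1 differed by 1.80 (SE 0.37, adjusted p = 0.0624) and Cyp4a14 by 0.60 (SE 0.13, adjusted p = 0.0824). Acot3, a peroxisomal thioesterase, differed by 1.20 (SE 0.24, adjusted p = 0.0605). No member of the peroxisomal list (27 measured) or of the mitochondrial fatty acid oxidation list (21 measured) passed. All members whose groups did not overlap were higher with PFNA in both lists, 8 of 27 (29.6%) and 6 of 21 (28.6%), against 6.83% of all probes. The medians were 0.16 and 0.17. Without HFD PFNA replicate 3 both medians were 0.07, with 9 members of the peroxisomal list above all controls and 3 below, and 6 above and 1 below in the mitochondrial list, against 13.4% of all probes above and 12.5% below.

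HFD PFNA replicate 3 carried most of the signal in several of these genes. Pdk4, a kinase that blocks pyruvate oxidation, had 7.24, 6.88 and 10.68 in HFD PFNA livers, against 7.71, 7.47 and 7.16 in HFD control livers. Ehhadh, the bifunctional enzyme of peroxisomal beta-oxidation, had 11.70, 11.51 and 13.18 in HFD PFNA livers, against 11.17, 11.05 and 11.13 in HFD control livers. Cidea, a lipid droplet protein, had 4.71, 5.34 and 10.58 in HFD PFNA livers, against 7.89, 4.38 and 4.32 in HFD control livers. Replicates 1 and 2 lay within or below the controls' range in Pdk4, inside it in Cidea and slightly above it in Ehhadh, whereas replicate 3 was above every control in all 3 genes. The differences were 0.82 for Pdk4 (SE 0.81, adjusted p = 0.808), 1.01 for Ehhadh (SE 0.40, adjusted p = 0.405) and 1.35 for Cidea (SE 1.48, adjusted p = 0.833). Without replicate 3 they were -0.39, 0.49 and -0.51. Acot2, a mitochondrial thioesterase, and Mogat1, an acyltransferase of triglyceride synthesis, differed by 1.33 and 1.63 (adjusted p = 0.281 and 0.239), and by 0.78 and 0.94 without replicate 3. In Slco1a1, an uptake transporter for organic anions, the same array was the lowest: the signals were 9.64, 8.95 and 6.97 in HFD PFNA livers, against 9.70, 10.15 and 10.07 in HFD control livers (difference -1.45, SE 0.65, adjusted p = 0.481; -0.68 without replicate 3).

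Counted over lists, HFD PFNA replicate 3 was at least 1 log2 unit above both other PFNA arrays in 8 of the 27 further PPARA targets, 4 of 9 adipocyte markers and 4 of 19 cholesterol genes, and in 1 member of each fatty acid oxidation list, against 0.522% of all probes. It was at least 1 below both in 5 of the 34 CAR and PXR targets and 3 of the 18 male-predominant genes, against 0.284% of all probes. The mean signal over the further PPARA targets was 9.04, 9.05 and 9.95 on the HFD PFNA arrays, against 8.99, 8.94 and 8.96 on the HFD controls. Over the adipocyte markers it was 5.31, 5.65 and 6.77 on the HFD PFNA arrays, against 6.02, 5.24 and 5.15 on the HFD controls. The 4 adipocyte markers were Fabp4, Lpl, Cidea and Cidec, which fatty liver also expresses. Adipoq, the hormone that defines fat cells, had signals of 2.29, 2.84 and 2.09 in HFD PFNA livers, against 2.37, 2.36 and 2.24 in HFD control livers, below the array median throughout. The source of the 4 raised markers in HFD PFNA replicate 3 was not tested.

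**Figure D3:**
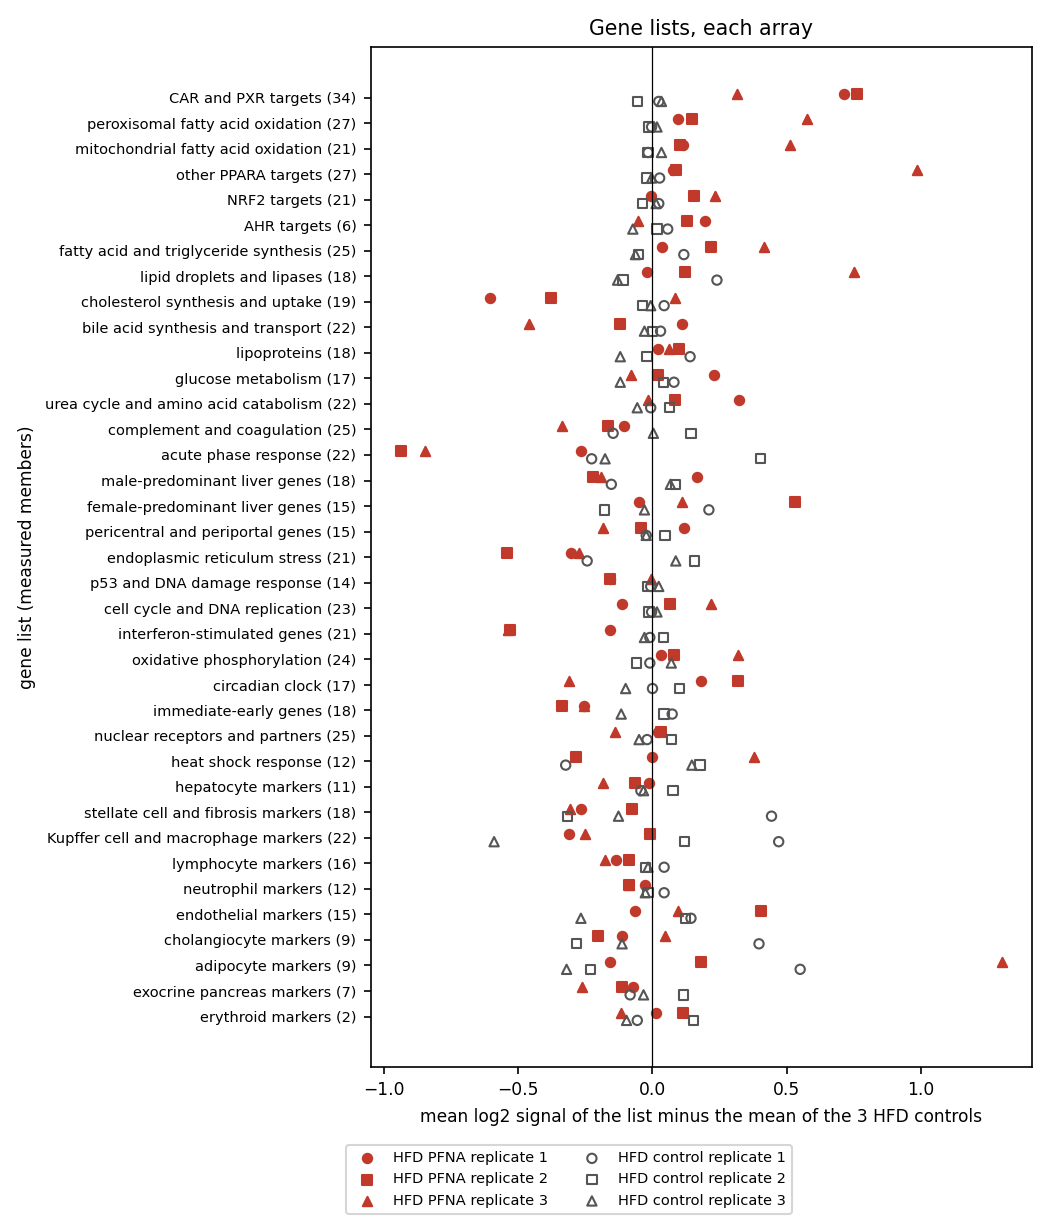
Mean log2 signal of each of 37 gene lists on each array, minus the mean of the 3 HFD controls; filled symbols are HFD PFNA arrays, open symbols HFD controls, and the number of measured members is in brackets. The CAR and PXR list is lowest in HFD PFNA replicate 3 among PFNA arrays (9.09), the further PPARA targets are highest there (9.95), and the interferon list is below every control on all 3 PFNA arrays.

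Genes induced by interferon included 1 called fall, and 11 more lay below all controls on every PFNA array. Interferon-stimulated genes encode antiviral and antibacterial proteins, and in liver they are made by hepatocytes as well as by immune cells. Igtp, an interferon-inducible GTPase that acts on intracellular pathogens, had signals of 7.09, 6.87 and 6.99 in HFD PFNA livers, against 7.80, 7.97 and 7.86 in HFD control livers. It fell by 0.89 (SE 0.16, adjusted p = 0.0439), and its call ended when any 1 of the 6 arrays was left out (adjusted p up to 0.154). It was the only one of 21 measured members to pass, against 0.0261% of all probes called lower. All PFNA arrays lay below all controls in 12 of the 21 (57.1%) and above them in none, against 6.89% and 6.83% of all probes, and the 12 was also the count without HFD PFNA replicate 3 (where 12.5% of all probes were lower). The median of the list was -0.42, and -0.32 without that array.

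Irgm1, a relative of Igtp, had signals of 6.04, 5.87 and 6.22 in HFD PFNA livers, against 6.72, 7.08 and 6.92 in HFD control livers (difference -0.86, SE 0.18, adjusted p = 0.0624). Ifit1, which binds viral RNA, had 7.38, 5.98 and 6.48 in HFD PFNA livers, against 7.45, 7.54 and 7.59 in HFD control livers (difference -0.91, SE 0.38, adjusted p = 0.444). The groups did not overlap in either gene, but in Ifit1 PFNA replicate 1 lay just under the controls. Rsad2, an antiviral enzyme, and Gbp3, a guanylate-binding protein, differed by -0.80 (adjusted p = 0.361) and -0.77 (adjusted p = 0.242). The mean signal over the list was 6.59, 6.22 and 6.21 on the HFD PFNA arrays, against 6.74, 6.79 and 6.72 on the HFD controls. On the low-fat diet the mean was 6.79, 6.36 and 6.75 on the LFD PFNA arrays, against 6.39, 6.58 and 6.91 on the LFD controls. Those low-fat groups overlapped. On the HFD PFOS arrays the list mean was 6.28, 5.94 and 6.05, below every HFD control. The mean over 16 measured lymphocyte markers was 4.27, 4.32 and 4.23 on the HFD PFNA arrays, against 4.45, 4.38 and 4.39 on the HFD controls. These means lay about at or below the median signal of the arrays, and none of the 16 passed the test. All PFNA arrays were below all controls in 3 of them (18.8%) and above in 1 (6.25%), against 6.89% and 6.83% of all probes. Among the 3, Cd8a of cytotoxic T cells differed by -0.56 (adjusted p = 0.213) and Nkg7 of natural killer cells by -0.42 (adjusted p = 0.288). The 1 above was Cd3e of T cells, which differed by 0.33 (adjusted p = 0.644). Macrophage markers gave means of 6.53, 6.83 and 6.59 on the HFD PFNA arrays, against 7.31, 6.96 and 6.25 on the HFD controls, so those groups overlapped. In whole liver, fewer cells of a type and less RNA per cell cannot be told apart, and the part of immune cells in the interferon genes was not tested.

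Most of the promoters read for these genes carry the letters that interferon response factors are known to bind. The motif searched was GAAANNGAAA on both strands (TTTCNNTTTC when it lies on the other strand), in the same windows. It occurred in 11 of the 17 measured members with a window (64.7%), and in 9 of the 11 with a window among the non-overlapping members (81.8%), against 3.99% of 27025 genes. The list was made of genes known to respond to interferon, so these shares describe the list and not an effect of PFNA. The non-overlapping members were picked from these same values. A match of these letters is not a binding site. The whole window of Igtp is shown because it is the called member (chr11:58199306-58199605, plus strand), with the motif and, next to it, a match of TTCNNNGAA, the letters bound by STAT factors, in capitals. Windows of 30 bases follow for Irgm1 (chr11:48871425-48871454, minus strand), Ifit1 (chr19:34640794-34640823, plus strand), Rsad2 (chr12:26456553-26456582, minus strand) and Gbp3 (chr3:142559989-142560018, plus strand), with a match of the motif in capitals. In Irgm1 and Gbp3 another match overlaps the marked one and is partly in lower case.
Igtp: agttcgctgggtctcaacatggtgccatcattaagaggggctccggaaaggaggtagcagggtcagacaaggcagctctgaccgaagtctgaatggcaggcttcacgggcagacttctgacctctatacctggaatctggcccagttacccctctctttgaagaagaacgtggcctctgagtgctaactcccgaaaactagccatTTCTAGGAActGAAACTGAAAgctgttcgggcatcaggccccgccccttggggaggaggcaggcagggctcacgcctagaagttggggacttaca
Irgm1: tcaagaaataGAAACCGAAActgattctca
Ifit1: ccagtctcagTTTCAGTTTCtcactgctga
Rsad2: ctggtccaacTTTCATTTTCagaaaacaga
Gbp3: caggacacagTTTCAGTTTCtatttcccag

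The other called falls were Serpina10, Cep85 and Ptma. Serpina10, a liver-made inhibitor of clotting factors, had signals of 9.63, 9.62 and 10.01 in HFD PFNA livers, against 10.33, 10.94 and 10.55 in HFD control livers, and fell by 0.85 (SE 0.16, adjusted p = 0.046). Ptma, prothymosin alpha, a nuclear protein of growing cells, had 10.27, 10.39 and 10.27 in HFD PFNA livers, against 11.11, 10.91 and 11.06 in HFD control livers, and fell by 0.72 (SE 0.13, adjusted p = 0.0398). Cep85, a centrosome protein, had 6.82, 6.83 and 6.58 in HFD PFNA livers, against 7.39, 7.69 and 7.43 in HFD control livers, and fell by 0.76 (SE 0.14, adjusted p = 0.0375). The groups did not overlap in any of the 3. The calls of Ptma and Cep85 ended when any 1 array was left out (adjusted p up to 0.135 each), and that of Serpina10 when HFD control replicate 2 or 3 or HFD PFNA replicate 1 or 2 was (adjusted p up to 0.166).

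Several further lists had lower values with PFNA without any member that passed. In the acute phase list, of plasma proteins that liver makes in inflammation, the median was -0.65 over 22 measured members, with 7 members below all controls (31.8%, against 6.89% of all probes) and none above. Without HFD PFNA replicate 3 its median was -0.40, and 7 members were below and 1 above, against 12.5% and 13.4% of all probes. On the low-fat diet its mean was 9.49, 9.39 and 9.66 on the LFD PFNA arrays, against 9.22, 9.52 and 9.62 on the LFD controls. Those low-fat groups overlapped. Lcn2, an iron-scavenging protein of that response, had signals of 8.84, 7.09 and 7.40 in HFD PFNA livers, against 9.25, 10.10 and 8.91 in HFD control livers (difference -1.64, SE 0.69, adjusted p = 0.451). Saa2, serum amyloid A, had 10.18, 6.85 and 8.06 in HFD PFNA livers, against 9.65, 10.73 and 9.77 in HFD control livers (difference -1.69, SE 0.84, adjusted p = 0.534). PFNA replicate 1 was the highest of the PFNA arrays in both genes, and in Saa2 it lay among the controls. Complement and coagulation genes had 6 of 25 members below all controls (24.0%, against 6.89% of all probes) and a median of -0.15; C9, the pore-forming component, differed by -0.72 (SE 0.23, adjusted p = 0.273). The list of endoplasmic reticulum stress had a median of -0.42 over 21 members, 5 of them below all controls (23.8%, against 6.89% of all probes) and 8 without HFD PFNA replicate 3 (against 12.5% of all probes), among them Atf3 (-0.79, SE 0.19, adjusted p = 0.121) and the chaperone Hspa5 (-0.74, SE 0.27, adjusted p = 0.366).

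Cholesterol synthesis genes split by array. Sqle, which makes squalene epoxide, had signals of 4.94, 4.90 and 6.38 in HFD PFNA livers, against 6.66, 6.68 and 6.92 in HFD control livers (difference -1.35, SE 0.38, adjusted p = 0.212). Cyp51, the lanosterol demethylase, had 5.49, 6.23 and 7.18 in HFD PFNA livers, against 7.24, 7.28 and 7.35 in HFD control livers (difference -0.99, SE 0.40, adjusted p = 0.42). PFNA replicates 1 and 2 were well under the controls in both genes and replicate 3 only just. Of 19 members, 4 were below all controls with all arrays (21.1%, against 6.89% of all probes) and 9 without replicate 3 (against 12.5% of all probes), and the median was -0.20 and -0.38. Cyp7a1, the rate-limiting enzyme of bile acid synthesis, had 10.79, 8.51 and 8.03 in HFD PFNA livers, against 10.89, 10.15 and 9.44 in HFD control livers, so the groups overlapped (difference -1.05, SE 0.82, adjusted p = 0.736). Scd1, the desaturase of fat synthesis, differed by -0.01 (SE 0.20, adjusted p = 0.99), and Cd36, a fatty acid carrier, by 0.52 (SE 0.31, adjusted p = 0.629). Without HFD PFNA replicate 3 these differences were -0.51 for Cyp7a1, -0.13 for Scd1 and 0.19 for Cd36 (adjusted p = 0.92, 0.915 and 0.907).

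Markers of stellate cells, macrophages, neutrophils, endothelium, bile duct cells, exocrine pancreas and red cells held no called gene. The fibrillar collagen Col1a1 had signals of 6.35, 6.59 and 6.40 in HFD PFNA livers, against 8.41, 6.22 and 6.85 in HFD control livers, and differed by -0.71 (SE 0.35, adjusted p = 0.53). Its groups overlapped, and HFD control replicate 1 was alone at a high level. The stellate cell and fibrosis list gave means of 6.79, 6.98 and 6.75 on the HFD PFNA arrays, against 7.50, 6.74 and 6.93 on the HFD controls.

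The PFNA response was also measured on the low-fat diet, in arrays that share no control with the high-fat comparison. There, 195 probes were called (0.566% of all probes). Both comparisons came from 1 fit and share its spread for each probe, so their calls are not fully independent. Of the 39 probes called on the high-fat diet, 22 were called on the low-fat diet in the same direction, 18 rises and 4 falls, which is 56.4% of the high-fat calls and 11.3% of the low-fat calls. The direction was the same in 38 of 39, against 59% of all probes, and Cep85 was the exception. This agreement covers the called probes and not the gene lists above. The median size over the 39 was 1.06 on the high-fat diet and 0.79 on the low-fat diet; the 39 were chosen on the high-fat diet, which favours larger values there. The difference between the diets' responses was tested as an interaction, and limma called 0 probes at an adjusted p of 0.05 (lowest adjusted p 0.938, 1786 probes at an unadjusted p under 0.05). In all other fits that were run the count was also 0. The 95% interval of the difference, not adjusted for the number of probes, extended 0.51 to either side in the median probe. Smaller differences between diets could thus not be seen for a typical probe. Larger ones also went uncalled, such as 1.15 for Cyp4a12b and 1.41 for Smad9 (adjusted p = 0.938 and 0.942 in limma). The count of 0 therefore does not show that the responses were equal.

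Cyp2b10 had signals of 9.44, 10.34 and 9.91 in LFD PFNA livers, against 4.58, 3.81 and 4.17 in LFD control livers, a difference of 5.71 (SE 0.67, adjusted p = 0.00125). The high-fat response minus the low-fat one was -0.45 for this gene, with a 95% interval of -2.45 to 1.56. Cyp4a12b had 11.28, 11.10 and 11.04 in LFD PFNA livers, against 10.21, 10.65 and 9.87 in LFD control livers. Its exposed arrays were thus at about the same signal on both diets, while its controls were lower on the high-fat diet. Its high-fat response was larger by 1.15 (95% interval 0.60 to 1.71, unadjusted p = 4.08e-04, adjusted p = 0.938). Smad9 had 6.88, 7.28 and 6.02 in LFD PFNA livers, against 6.50, 6.67 and 6.42 in LFD control livers, where the groups overlapped. Its high-fat response was larger by 1.41 (95% interval 0.62 to 2.20, unadjusted p = 0.00146, adjusted p = 0.942). The control mean of Smad9 was 5.33 on the high-fat and 6.53 on the low-fat diet, and its PFNA means were 6.94 and 6.73. Cyp4a12b and Smad9 were both called on the high-fat diet, and that response is part of the interaction. Their intervals and unadjusted p-values are therefore not independent of the choice, which favours a larger high-fat response. Gsta4 had the larger value on the low-fat diet, with a response of 0.79 on the high-fat diet and 1.34 (SE 0.14, adjusted p = 5.36e-04) on the low-fat diet (interaction -0.55, adjusted p = 0.942).

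**Figure D4:**
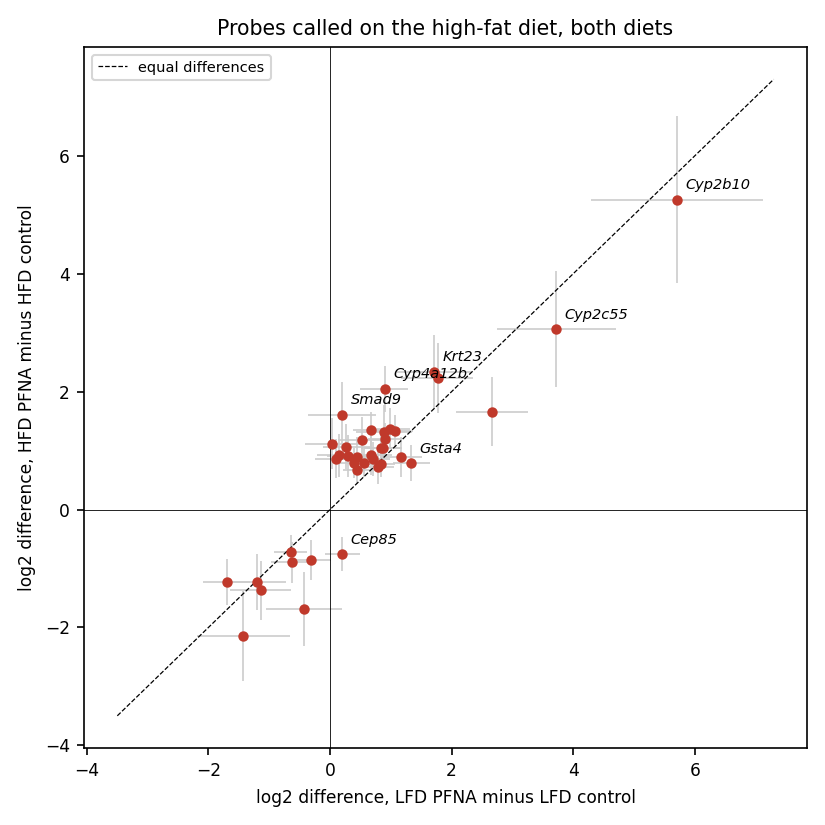
Log2 difference between PFNA and control for the 39 probes called on the high-fat diet, with the high-fat diet on the vertical axis and the low-fat diet on the horizontal axis; bars are 95% intervals and the dashed line marks equal differences. Of the 39 probes, 38 have the same sign on both diets and Cep85 does not.

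PFNA and PFOS on the high-fat diet, which differ in their head group (carboxylic acid against sulfonic acid), were compared directly as 1 pair. As their doses are not given, the values compare the exposures as fed and not the compounds at equal dose. With all 6 arrays, 1 probe was called (0.0029% of all probes, with 2501 at an unadjusted p under 0.05). This was Slc22a30, a member of the Slc22 family of organic ion transporters, with 5.45, 5.77 and 5.89 in HFD PFNA livers, against 4.58, 3.93 and 4.53 in HFD PFOS livers. Every PFNA array was above every PFOS array, and the difference was 1.36 (95% interval 0.96 to 1.75, adjusted p = 0.0472). The call ended when any 1 of these 6 arrays was left out. For Cyp2b10 the difference was 0.88 with an interval of -0.54 to 2.29, and for Cyp4a12b 0.04 with an interval of -0.36 to 0.43.

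Pdk4 and Cidea, high in replicate 3 among the PFNA arrays, were high on all 3 PFOS arrays. Pdk4 had 7.24, 6.88 and 10.68 in HFD PFNA livers, against 10.13, 10.45 and 11.21 in HFD PFOS livers, a difference of -2.33 (95% interval -4.04 to -0.62, adjusted p = 0.654). Cidea had 4.71, 5.34 and 10.58 in HFD PFNA livers, against 11.02, 9.94 and 10.86 in HFD PFOS livers, a difference of -3.73 (95% interval -6.86 to -0.60, adjusted p = 0.654). PFNA replicate 3 lay within the PFOS range for Pdk4 and Cidea, and replicates 1 and 2 lay below it. With HFD PFNA replicate 3 and a similarly placed low-fat PFOS array both left out, 510 of 34472 probes were called between the compounds. Of these, 259 were higher with PFNA and 251 lower. With HFD PFNA replicate 3 alone left out, 1 probe was called, and it was lower with PFNA. The low-fat PFOS array is in neither compared group and enters the fit only through the spread shared by all groups. The counts of 510 and 1 thus differ only through that shared spread. These exclusions were made with the values known, so they describe the arrays and are not independent evidence.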

How the data were processed

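Per the labels' protocols, liver RNA came from a Trizol extraction and was biotin-labelled for 1 gene-level array per mouse. The authors deposited a value for each probe and array. The submitters' processing notes name Transcriptome Analysis Console; no background correction or normalization is given in those notes. The deposited values were read as log2 signal from their range, although the labels name no base. No filter was applied. Group means were fitted to all 18 arrays with limma 3.58.1 in R 4.3.3 (12 residual and 5.21 prior degrees of freedom), and p-values were adjusted by Benjamini and Hochberg over 34472 probes. Errors are its standard errors; the number of arrays limits the precision.

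A gene with several probes was represented by the one with the highest mean. The text names up to 12 called rises and 12 called falls, up to 4 called members of each of 37 lists, or the 2 largest uncalled ones, and reference genes of the receptors. The remaining called genes and Gstm3, Gstt3, Cyp2c29, Cyp2c38, Cyp2c39, Ifit1, Irgm1, Rsad2, Gbp3 and Hspa5 were named after their values were seen. The comparison, lists and tests were chosen with earlier results of these data known. The lists held 717 genes, 637 of them measured. Alternatives were quantile normalization, bright probes only, other fits and leaving out arrays.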

Additional observations from a re-analysis of the deposited data

Results flagged for a closer look

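In 5 genes named above, all 3 HFD PFNA arrays lay below the mean of their controls and all 3 LFD PFNA arrays lay above theirs, and none passed the adjusted test of that difference in limma. The high-fat response minus the low-fat response was -0.96 for Cep85, with -0.76 on the high-fat and 0.20 on the low-fat diet (unadjusted p = 1.05e-04, adjusted p = 0.938). For the sterol synthesis genes Sqle and Cyp51 it was -1.74 and -1.31 (adjusted p = 0.942 and 0.943). For the P450 gene Cyp2c39 it was -1.53 (adjusted p = 0.942), and for the collagen gene Col1a1 it was -0.88 (unadjusted p = 0.0933, adjusted p = 0.943). The high-fat groups of Col1a1 overlapped, and HFD control replicate 1 alone was at a high level. The 5 genes were picked by these opposite directions. Cep85 was also called on the high-fat diet, so its unadjusted p is not independent of the choice.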

How the results depend on the processing

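The count of 39 called probes for PFNA on the high-fat diet was 45 with quantile normalization, 115 among probes of above-median signal alone, 115 with a variance trend on intensity, 73 with array weights, 6 in a fit to the 6 arrays alone, 22 at a log2 difference of at least 1, and 148 with HFD PFNA replicate 3 and the low-fat PFOS replicate 3 both left out. The low-fat PFOS array is in neither compared group and enters only through the spread shared by all groups. Leaving out single arrays gave 9 to 34. With a replicate block the count was 47, and it ended the calls of 5 of the 28 genes (adjusted p up to 0.0549). Same-numbered arrays did not deviate together (correlations of -0.045, -0.015 and 0.023), so the numbers were not taken as pairs. The interaction count was 0 under each setting. The count of 1 between PFNA and PFOS was 0 with quantile normalization, with a replicate block and in the fit to their 6 arrays alone, 0 to 1 without single arrays, and 510 without the arrays named above. Single genes turned direction: without HFD PFNA replicate 3, with or without the low-fat array, Pdk4 was -0.39, Cidea -0.51 and Nr1i3 0.10. Without HFD control replicate 2, Nr1i3 was 0.02, and Scd1 was 0.08 without HFD control replicate 1. Over all single arrays left out, Pdk4 ranged up to 1.51, Cidea up to 2.53, Nr1i3 down to -0.19, and Scd1 between -0.13 and 0.21. The cause of these changes was not tested. Signals near the array median cannot be told from background, so differences of Cyp2b10 and other probes dim in controls are limited by it. Counts of list members without HFD PFNA replicate 3 were added after seeing the data.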

Other observations

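Some gene groups outside the lists above had more members with non-overlapping groups than the 6.83% of all probes that were higher and the 6.89% that were lower. In oxidative phosphorylation, which makes ATP in mitochondria, 8 of 24 measured members had all HFD PFNA arrays above all HFD controls (33.3%) and none below; without HFD PFNA replicate 3 these were 8 and 3, where 13.4% of all probes were above and 12.5% below. Uqcrc1, of complex III, had log2 signals of 10.59, 10.72 and 10.20 in HFD PFNA livers, against 9.94, 10.01 and 10.05 in HFD control livers (difference 0.50, SE 0.15, adjusted p = 0.233). Sdhc, of complex II, differed by 0.46 (SE 0.12, adjusted p = 0.154). In the urea cycle and amino acid catabolism, 6 of 22 members were above all controls (27.3%) and none below, and 14 above and 1 below without HFD PFNA replicate 3, against the same 13.4% and 12.5%. Immediate-early genes, which respond to stimuli within minutes, had 5 of 18 members below all controls (27.8%) and a median of -0.24. Egr1 of that list had 5.23, 5.38 and 5.76 in HFD PFNA livers, against 6.38, 6.39 and 6.12 in HFD control livers (difference -0.84, SE 0.23, adjusted p = 0.196). None of these lists held a called gene.

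Single genes with clear separation but no call were spread over other functions. Igfbp2, a carrier of insulin-like growth factors, had signals of 11.57, 10.80 and 10.94 in HFD PFNA livers, against 9.84, 9.80 and 9.95 in HFD control livers (difference 1.24, SE 0.31, adjusted p = 0.141). Plk2, a p53-responsive kinase, differed by 0.85 (SE 0.17, adjusted p = 0.055). Trp53inp1, another p53 target, had 8.44, 7.74 and 8.64 in HFD PFNA livers, against 9.34, 9.52 and 9.43 in HFD control livers (difference -1.16, SE 0.31, adjusted p = 0.182). Lpin1, a phosphatidate phosphatase of triglyceride synthesis, differed by -1.20 (SE 0.32, adjusted p = 0.182).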
